A study of Rattus norvegicus with 4 samples.

Results

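The genes described here encode the pore-forming and auxiliary subunits of voltage-gated calcium channels (Cacna1, Cacna2d, Cacnb and Cacng genes) and sodium channels (Scn genes), the hyperpolarization-activated HCN channels, acid-sensing channels (Asic), transient receptor potential channels (Trpc, Trpm, Trpv), the calcium release channels of the endoplasmic reticulum (Itpr, Ryr) and the store-operated Orai channels. They were taken from the count table by their symbols, and a gene became a member when at least 10 cells held 1 or more unique molecular identifiers (UMIs) of it. Of 30058 genes listed, 81 matched by symbol and 68 met this minimum. Among those left out, 6 had 0 UMIs (*Asic5*, *Cacna1s*, *Cacng1*, *Cacng4*, *Trpc2*, *Trpv5*). *Scn10a*, *Scn11a*, *Ryr1*, *Trpc5*, *Trpc7*, *Trpm8* and *Trpv6* were detected in fewer than 10 cells. Nearest to the minimum were *Asic3*, in 11 cells, and *Ryr1*, in 7. The members carry 67 symbols, since *Trpm3* is listed in 2 rows, and *Trpc4ap* matched by its name but encodes no channel subunit.

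The cells came from dispersed anterior pituitaries of Sprague Dawley rats, female at postnatal day 44 in diestrus and male at postnatal day 59, none of them given a treatment that the labels name. Each sex was 1 pool of 4 pituitaries loaded on 2 lanes of a 10X Genomics single-cell run, here lanes 1 and 2 for females and 3 and 4 for males. The lanes are technical replicates, so every SD and p-value given here measures the spread between lanes or pools and not between animals, and a sex difference cannot be told apart from a difference between the pools or between the ages. Cells were typed from the study's marker genes. The hormone-producing cells (HPC) were lactotrophs (L), somatotrophs (S), corticotrophs (C), thyrotrophs (T) and gonadotrophs (G), and the other cells were typed as folliculostellate cells (FSC), leukocytes (Le), endothelial cells (EC) and erythrocytes (E). No member gene was used to type a cell.

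Endocrine cells of the anterior pituitary fire action potentials, and the calcium that enters through voltage-gated channels drives hormone release. The alpha1 subunit forms the calcium pore and sets the current type (L, P/Q, N, R or T), while alpha2delta and beta subunits set how many channels reach the membrane and how they gate. Gonadotrophs also release calcium from the endoplasmic reticulum through inositol trisphosphate receptors when gonadotropin-releasing hormone acts on them, and emptied stores open Orai channels at the plasma membrane. Folliculostellate cells are the non-endocrine, glia-like cells of the gland.

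The final set held 6847 of 7861 cells, with 2316 FSC, 794 C, 237 G, 88 T, 1886 S, 485 L, 548 Le and 361 E. EC numbered 44, 30, 35 and 23 in lanes 1 to 4. The lanes held 16178124 to 19715385 UMIs in these cells, and median UMIs per cell ran from 6895 in FSC to 13665 in S among the pituitary types. In L the median differed between lanes, from 6667 to 20499, and the female cells were the deeper ones. Female lanes 1 and 2 held 2133584 and 2091915 UMIs in 124 and 103 L. Male lanes 3 and 4 held 1101049 and 963129 UMIs in 131 and 127 L. The shares of cells with a marker gene describe the typing and are no check of it, since the same genes set the types. At least 89.7% of FSC held each of 4 FSC markers, *Gnrhr* was found in 95.8% of G and *Crhr1* in 90.1% of C. *Trhr* was found in only 42.1% of T and *Ghrhr* in 38.7% of S. The hormone genes *Gh1*, *Pomc* and *Prl* had UMIs in 100%, 93.0% and 92.4% of the cells outside S, C and L, respectively. A barcode sequence occurred in 2 lanes for 30 barcodes, and 55 final cells carried one. Hormone transcripts were found in all types (0.385% to 0.484% of the UMIs of Le). Member genes were near 0 in E, where 59 of the 68 had 0 UMIs in the 361 cells. There 0 cells allow a share of up to 0.831%, and no member was found in more than 0.554% of E. Whether member UMIs in the other types came from other cells was not tested. Levels are TMM-scaled CPM, the UMIs of a gene relative to all UMIs of a cell type in a lane, as mean ± SD of the 4 lanes. A ± after a log2 fold change is its SE. In such sums a difference in the share of expressing cells and one in the level per cell cannot be told apart. A 3′ UMI count carries no gene length, so levels of different genes were compared without a length term.

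Of the 68 members, 49 passed the filter on low counts in the test between cell types. A gene was called when its adjusted p was below 0.05 and its change at least 2-fold. The 19 that did not pass included *Asic3*, *Cacna1f*, *Cacna1i*, *Cacna2d4*, *Cacnb1*, *Cacng3*, *Cacng5*, *Cacng8*, *Hcn2*, *Hcn3*, *Ryr3*, *Scn1a*, *Scn4a*, *Trpm5*, *Trpm6*, *Trpv1*, *Trpv3* and *Trpv4*. Since a gene could pass the filter through the very type in which it was high, the shares below describe the members that passed and not all members. By mean level, 33 of the 49 were highest in an HPC type (9 each in C, G and T, 2 in S and 4 in L), 4 in FSC, 6 in Le and 6 in EC. HPC were 5 of the 8 types compared, and the same count was not made over all genes, so no preference for HPC is read from it. Some of the 9 in T rest on few UMIs, such as the first *Trpm3* row with 5 and *Ryr2* with 8. *Cacna2d1*, *Scn3b*, *Cacnb3* and *Asic4* reached the highest levels among the channel subunits of HPC. By the share of cells with a UMI, 42 of the 49 were highest in the same type as by level, and 36 were when each cell was thinned to 2000 UMIs.

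**Figure D1:**
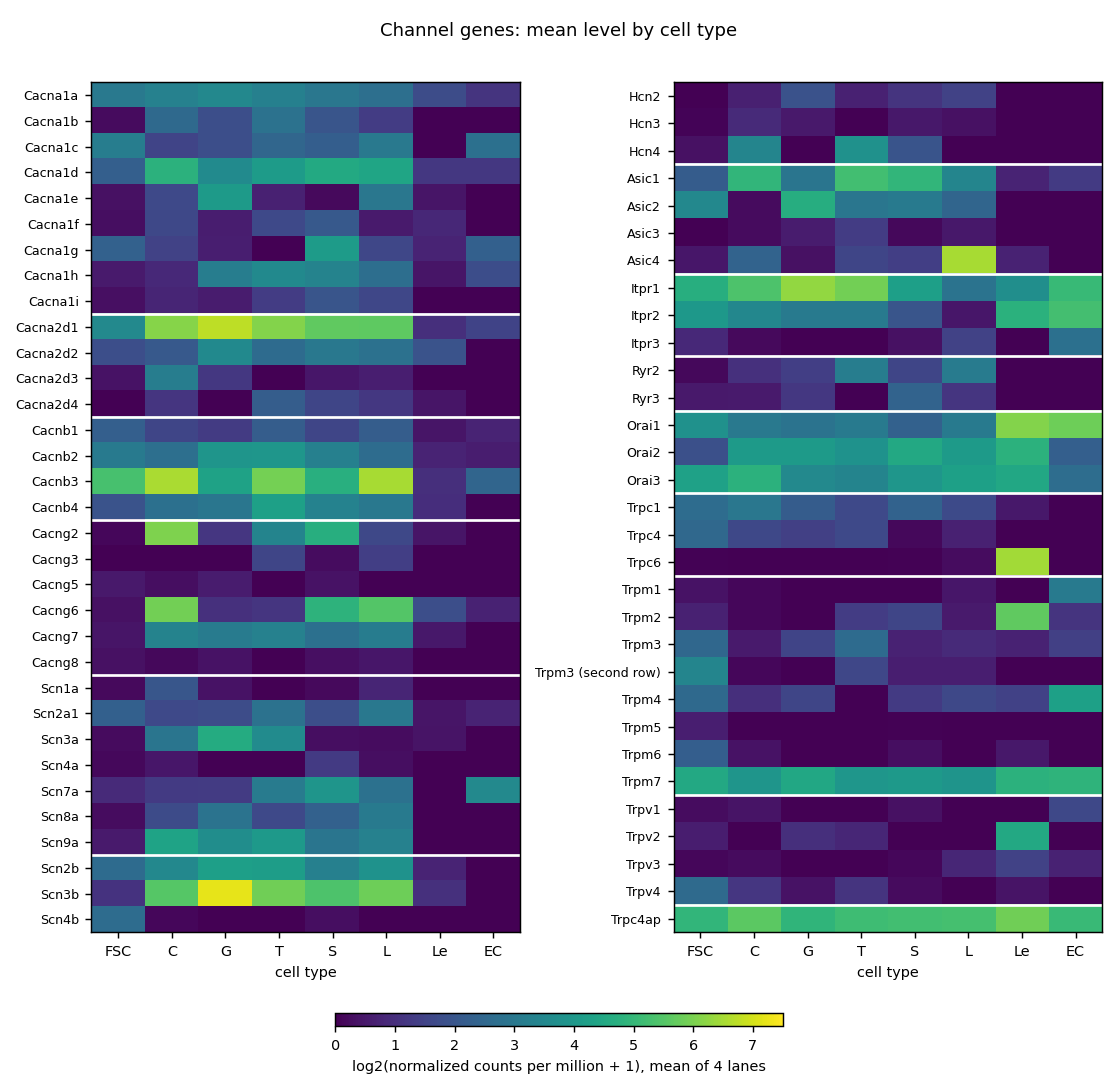
Levels of 64 member rows (vertical axes, grouped by family with white lines between) in 8 cell types (horizontal axes). Color gives log2(CPM + 1) of the mean over 4 lanes. Most voltage-gated calcium and sodium channel genes are brightest in 1 of the 5 hormone-producing types, but *Cacna1c*, *Cacnb1* and *Scn4b* are brightest in FSC. *Trpc6*, *Trpm2* and *Trpv2* stand out in Le.

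Against the mean of the HPC types, 21 of 49 tested members were lower in FSC, with 11.8% of all tested genes called lower, and 10 were higher, with 20.7% of all tested genes called higher. The median log2 fold change was -0.34 for the members and 0.09 for all genes. The genes that fell were mostly those of voltage-gated channels. *Scn3b*, a sodium channel beta subunit, ranged from 0.793 to 1.49 CPM over the lanes of FSC, against 41.6 CPM on average in S and 148 CPM in G (log2 fold change -5.76, SE 0.43, adjusted p = 4.14e-08). *Cacna2d1*, the alpha2delta gene with most UMIs in each HPC type, was at 6.81, 6.54, 14.1 and 14.4 CPM in lanes 1 to 4 of FSC and at 33.1 to 66.2 CPM in S, so the lanes of the 2 types did not overlap (log2 fold change -2.71, SE 0.26, adjusted p = 4.42e-07). Among pore-forming subunits, *Cacna1d* (L-type) fell by 2.30 on the log2 scale, *Cacna1h* (T-type) by 3.42, *Cacna1b* (N-type) by 3.98, *Scn9a* by 4.60 and *Scn8a* by 4.17, with adjusted p from 9.28e-06 to 0.0019. *Scn3a*, *Cacng6* and *Cacna1e* also fell. Without lane 1 for *Scn3a*, and without lane 3 for *Cacng6* and *Cacna1e*, an HPC type held 0 UMIs of the gene, and there the contrast of mean logs could give no call. *Asic4* (log2 fold change -3.06 ± 1.16, adjusted p = 0.041) lost its call with the cells typed by markers alone, without lane 1 and with library size in place of TMM (adjusted p = 0.0551). G held 1 female UMI of *Asic4*, in lane 1, and 0 male UMIs, among 1879202 and 907714 UMIs. FSC held 0 and 9 among 8556201 and 10379487, so over both sexes G was not above FSC.

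Among the members higher in FSC, *Itpr2*, an inositol trisphosphate receptor, was at 13.0, 13.7, 17.8 and 15.5 CPM in lanes 1 to 4 (log2 fold change 2.00, SE 0.27, adjusted p = 1.62e-05). It was at 1.45 to 4.08 CPM in S and at 0.373 CPM on average in L. The other HPC types lay nearer to FSC, with means of 10.0 CPM in C, 7.54 CPM in G and 7.29 CPM in T (0 to 18.0 CPM over the lanes of T). *Cacna1c*, the second L-type pore gene, rose (log2 fold change 1.15, SE 0.31, adjusted p = 0.0062). It was at 8.15 ± 0.434 CPM in FSC and 1.88 ± 0.699 CPM in C, and it made up 33.0% (29.1 to 37.2%) of the alpha1 UMIs of FSC (exact 95% interval). L lay nearer to FSC than C did. L held 22 female and 13 male UMIs of *Cacna1c* among 4225499 and 2064178 UMIs, and FSC 81 and 97 among 8556201 and 10379487. TRP channel genes were also in this group. *Trpc4*, a receptor-operated channel, was at 4.78 ± 0.585 CPM in FSC (log2 fold change 2.33, SE 0.46, adjusted p = 0.000747), and the first *Trpm3* row at 4.67 ± 0.692 CPM (log2 fold change 1.91, SE 0.44, adjusted p = 0.00177). In T the first *Trpm3* row was not below FSC, at 5.16 CPM on average (0 to 9.63 CPM over the lanes) from 5 UMIs. The second *Trpm3* row was at 9.79, 6.93, 11.5 and 10.1 CPM in the 4 lanes of FSC and at 0 CPM in all 4 lanes of G. How reads were divided between the 2 rows is not known, so their split is uncertain. *Trpm4*, a calcium-activated cation channel, was at 4.97 ± 0.722 CPM. *Scn4b*, another sodium channel beta subunit, was found in 104 of 2316 cells (4.49%, exact 95% interval 3.68 to 5.41%), with 1 UMI in C, 4 in S and 0 in G, T and L. The 88 T allow a share of up to 3.41%. Its call was lost with DESeq2 (adjusted p = 0.246). *Orai1* rose (1.01 ± 0.26, adjusted p = 0.00436), and without lane 3 or 4 its log2 fold change was 0.97 or 0.98, just under 2-fold. The call of *Asic2* (adjusted p = 0.0444) was lost without lane 3 (adjusted p = 0.0521) and with DESeq2 (0.452), and that of *Trpv2* (adjusted p = 0.0393) without lane 1 (0.144), 3 (0.0542) or 4 (0.0876) and with DESeq2 (0.0987). In the female lanes of G and S *Asic2* was above FSC, as given below. *Trpv2* averaged 0.522 CPM in FSC from 11 UMIs, 1.03 CPM in G from 3 and 0.763 CPM in T from 1. C, S and L held 0 UMIs of *Trpv2*, so its fold has no fixed size.

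*Trpv4*, an osmosensitive channel, and *Trpm6*, a magnesium-permeable one, did not pass the filter and are given as a description. *Trpv4* was found in 100 of 2316 cells (4.32%, exact 95% interval 3.53 to 5.23%) and *Trpm6* in 77 of 2316 cells (3.32%, exact 95% interval 2.63 to 4.14%), while in S, whose cells were deeper, the shares were 0.159% (0.0328 to 0.464%) and 0.212% (0.0578 to 0.542%). *Trpm7*, which is expressed widely in mammalian cells, was the TRP gene with most UMIs and ranged on average from 13.8 CPM in L to 28.5 CPM in EC.

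Corticotrophs, which make adrenocorticotropin from *Pomc*, were higher in several calcium channel auxiliary subunits. Of the 49 members, 8 were higher than the mean of the other HPC types, with 7.34% of all genes called higher, and 2 were lower, with 6.16% of all genes called lower. *Cacng2*, known as stargazin, which is best known for carrying AMPA receptors to synapses, was at 93.6 and 58.0 CPM in the female lanes and 61.6 and 50.1 CPM in the male lanes. In S it was at 20.3 to 31.4 CPM, and in T at 0 and 4.8 CPM in the female lanes and 17.5 and 15.3 CPM in the male lanes. In G, L and FSC it was at no more than 3.73 CPM in any lane (log2 fold change of C 3.57, SE 0.30, adjusted p = 1.52e-06). *Cacng6*, a gamma subunit known from calcium channels, was at 54.1 and 66.5 CPM in the female lanes and 51.5 and 62.0 CPM in the male lanes (log2 fold change 3.08, SE 0.26, adjusted p = 8.73e-07). All 6 Cacng members together were at 134 ± 15.5 CPM in C, against 10.7 ± 2.60 CPM in G. *Cacng2* held 48.3% (45.5 to 51.1%) of the Cacng UMIs of C and *Cacng6* 44.3% (41.6 to 47.1%). The beta subunit gene *Cacnb3* was higher in C too (log2 fold change 1.17, SE 0.20, adjusted p = 0.000474).

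*Cacna2d3* was found at 8.12, 8.55, 7.31 and 8.46 CPM in lanes 1 to 4 of C and at no more than 3.12 CPM in any lane of another type. T held 0 UMIs of it, so its fold has no fixed size, and DESeq2 did not call it (adjusted p = 0.253). *Hcn4*, the pacemaker channel gene, was at 7.58 and 9.03 CPM in the female lanes and 12.2 and 9.87 CPM in the male lanes and was found in 87 of 794 cells (11.0%, exact 95% interval 8.87 to 13.3%). *Itpr2* (1.82 ± 0.34, adjusted p = 0.00109) and *Orai3* (1.08 ± 0.20, adjusted p = 0.00123) rose in C on the log2 scale. *Scn3a* was called higher as well (1.67 ± 0.51, adjusted p = 0.0326), a call lost without lane 2 (adjusted p = 0.0617) or 4 (adjusted p = 0.133). Its mean level in C, 6.51 CPM, lay below T (11.2 CPM) and G (23.4 CPM) and above S (0.215 CPM) and L (0.181 CPM). *Cacna1h* fell by 3.31 on the log2 scale (adjusted p = 0.000477), with 0.475 to 1.08 CPM over the lanes of C against 8.58 to 9.83 CPM in S. Among sodium pores of C, *Scn9a* had most UMIs, 54.2% (48.8 to 59.6%) of the family.

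**Figure D2:**
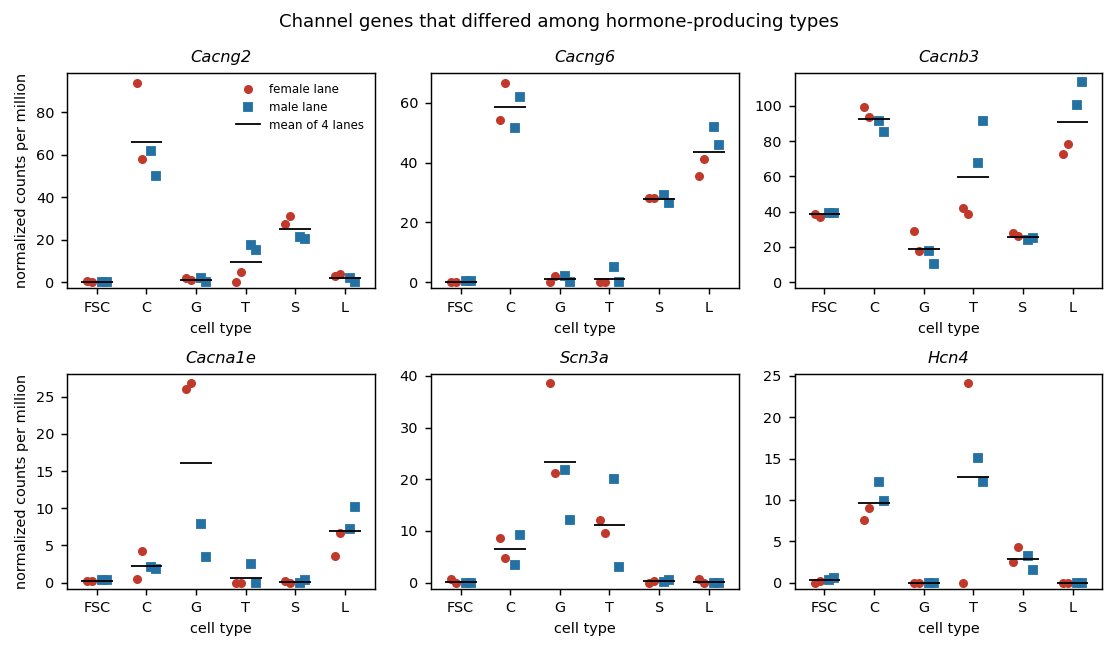
Levels of 6 member genes (vertical axes, CPM on linear scales that differ between panels) in folliculostellate cells and the 5 hormone-producing types (horizontal axes). Points are single lanes, red circles female and blue squares male, and bars are means of 4 lanes. *Cacng2* is highest in C and S, *Cacng6* in C, S and L, and both are near 0 in G. *Cacna1e* and *Scn3a* have their highest means in G, and *Hcn4* is at 0 in every lane of G and L.

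Gonadotrophs were higher in *Scn3a*, *Scn3b* and *Itpr1*, and in the R-type calcium channel gene mainly through the female pool. Against the other HPC types 6 members were higher, with 7.01% of all genes called higher, and 4 were lower, with 3.22% of all genes called lower. *Scn3a* was at 38.5 and 21.2 CPM in the female lanes and 21.7 and 12.1 CPM in the male lanes, against at most 0.454 CPM in any lane of S and 0.724 CPM in any lane of L (log2 fold change 3.96, SE 0.49, adjusted p = 6.08e-05). It made up 51.7% (43.2 to 60.2%) of the alpha subunit UMIs of G. Its mean levels in T and C lay below that of G and above those of S and L, as given above. *Scn3b* was at 79.1 and 58.0 CPM in the female lanes and 253 and 204 CPM in the male lanes (log2 fold change 1.44, SE 0.26, adjusted p = 0.00171), so it was higher mainly through the male pool. The 4 beta subunit genes together reached 177 ± 90.2 CPM in G. By lane they were at 106 and 94.9 CPM in females and 274 and 234 CPM in males. Over the lanes of both sexes these genes were at 66.3 to 84.3 CPM in L and 62.6 to 110 CPM in T. The lanes of *Scn3b* in T are given below. *Cacna1e*, which encodes the R-type pore, was at 26.03 and 26.8 CPM in the female lanes and 7.89 and 3.46 CPM in the male lanes (log2 fold change 3.63, SE 0.59, adjusted p = 0.000659) and held 34.6% (27.2 to 42.5%) of the alpha1 UMIs over both sexes. Of these it had 49 of 111 in females and 6 of 48 in males, where it came behind *Cacna1a* with 13, *Cacna1d* with 12 and *Cacna1h* with 9. Male G held its 6 UMIs of *Cacna1e* among 907714 UMIs and male L 18 among 2064178, so male L was not below male G. *Itpr1*, the main inositol trisphosphate receptor of these cells by UMIs, was at 63.5 and 58.0 CPM in the female lanes and 101 and 84.8 CPM in the male lanes (log2 fold change 1.75, SE 0.21, adjusted p = 3.64e-05). In T it was at 84.2 and 62.6 CPM in the female lanes and 25.0 and 64.1 CPM in the male lanes. Female T was thus not below female G.

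Of the genes lower in G, *Cacng6* (log2 fold change -4.17 ± 0.70), *Cacng2* (-3.44 ± 0.67), *Asic1* (-1.79 ± 0.41) and *Cacnb3* (-1.62 ± 0.27), *Cacnb3* still held 47.2% (38.2 to 56.3%) of the beta subunit UMIs. The call of *Asic1* was lost without lane 2 (adjusted p = 0.0669). *Cacng6* could not be called without lane 3, where T held 0 UMIs. *Asic2* was called higher (3.02 ± 0.92, adjusted p = 0.0484) with 91 UMIs in its female lanes and 0 in its male lanes, and this call was lost without lane 1 (adjusted p = 0.0611) or 2 (0.0799) and with DESeq2 (0.58).

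In thyrotrophs, of which there were only 88, 4 members were higher, with 3.17% of all genes called higher, and 1 was lower, with 0.734% of all genes called lower. *Hcn4* was at 0 and 24.1 CPM in the female lanes and 15.0 and 12.2 CPM in the male lanes, from 5 female and 10 male UMIs, and it had 0 UMIs in G and L. The HCN genes together were at 23.1 ± 15.1 CPM in T and 11.4 ± 1.67 CPM in C, and at 3.15 ± 1.77 CPM in L. HCN channels open on hyperpolarization and carry a pacemaker current. *Itpr1* (1.22 ± 0.27, adjusted p = 0.0166) and *Scn3a* (2.82 ± 0.71, adjusted p = 0.033) were higher in T. *Itpr1* lost its call without lane 1 (adjusted p = 0.0637) or 4 (adjusted p = 0.124), and *Scn3a* without lane 2 (adjusted p = 0.0704) or 3 (adjusted p = 0.39). *Cacng6* was lower (-3.16 ± 0.71, adjusted p = 0.0172), a call lost without lane 2 (adjusted p = 0.158) or 4 (adjusted p = 0.0602) and with DESeq2 (adjusted p = 0.0533).

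Somatotrophs had 6 members higher than the other HPC types, with 6.15% of all genes called higher, and 5 lower, with 4.06% of all genes called lower. With library size in place of TMM, which moved the median of all genes by -0.321, the counts were 6 and 11. Shares of all genes called with library size are not given, so these counts have no background. *Cacna1g*, a T-type pore gene, was at 22.1 and 28.0 CPM in the female lanes and 6.71 and 8.32 CPM in the male lanes and was found in 248 of 1886 cells (13.2%, exact 95% interval 11.7 to 14.8%). T held 0 UMIs of it. It made up 21.8% (19.6 to 24.0%) of the alpha1 UMIs of S and *Cacna1d* 34.2% (31.7 to 36.8%) with the sexes pooled. The order differed by sex: in females *Cacna1g* had 206 and *Cacna1d* 186 of 632 alpha1 UMIs, and in males they had 96 and 289 of 755. *Scn7a*, a sodium channel gene known for a role in sodium sensing, was at 11.0, 13.0, 15.2 and 16.3 CPM in lanes 1 to 4 of S (log2 fold change 2.37, SE 0.56, adjusted p = 0.0101), though DESeq2 did not call it (adjusted p = 0.0753). It held 33.3% (30.2 to 36.4%) of the sodium alpha UMIs of S. *Cacng2* (1.83 ± 0.33) and *Cacng6* (1.73 ± 0.29) were higher in S too, with 28.0 ± 1.03 CPM for *Cacng6*. By mean level of *Cacng6*, S lay below C (58.5 CPM) and L (43.6 CPM) and above G (1.05 CPM) and T (1.25 CPM). *Cacnb3* (-1.14 ± 0.22), *Cacna1e* (-4.48 ± 1.21), *Scn3a* (-4.07 ± 1.08) and *Trpc4* (-3.13 ± 0.84) were lower on the log2 scale. *Trpc4* lost its call without lane 1 (adjusted p = 0.0707) or 2 (adjusted p = 0.075) and with the cells typed by markers alone (adjusted p = 0.0545). *Cacna1e* and *Scn3a* could not be called without lane 3 and lane 1, respectively, where a compared type held 0 UMIs. *Trpm2* was called higher from low levels (0.490 to 3.48 CPM), and the call was lost without lane 4 (adjusted p = 0.103).

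Lactotrophs had 6 members higher, with 6.93% of all genes called higher, and 5 lower, with 3.53% of all genes called lower. With library size in place of TMM, which moved the median of all genes by -0.273, the counts were 3 and 5, again without a share of all genes beside them. *Asic4*, a member of the acid-sensing family that is not known to be gated by protons, was at 31.9 and 23.1 CPM in the female lanes and 138 and 166 CPM in the male lanes in L and at no more than 6.35 CPM in any lane of the other HPC types (log2 fold change 5.68, SE 0.48, adjusted p = 2.36e-06). It was found in 241 of 485 cells (49.7%, exact 95% interval 45.2 to 54.2%) and made up 84.5% (80.9 to 87.7%) of the acid-sensing channel UMIs, where *Asic1* led in C, S and T. *Cacng6* (log2 fold change 2.51, SE 0.29, adjusted p = 2.29e-05) was higher in L while *Cacng2* was lower (log2 fold change -2.53, SE 0.58, adjusted p = 0.00803), so that *Cacng6* made up 78.1% (72.6 to 82.9%) of the Cacng UMIs. *Cacnb3* was higher (1.11 ± 0.20, adjusted p = 0.00156), at 0.88 and under 2-fold with library size. *Cacna1e* was called higher (adjusted p = 0.034) but not without lane 2 (adjusted p = 0.0738) or 4 (adjusted p = 0.0647), nor with library size (adjusted p = 0.0659).

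Of the inositol trisphosphate receptors, *Itpr1* and *Itpr2* had their lowest mean levels in L. *Itpr1* was at 3.62 and 5.22 CPM in the female lanes and 8.06 and 8.16 CPM in the male lanes (log2 fold change -2.79, SE 0.30, adjusted p = 1.32e-05) and *Itpr2* at 0.373 CPM on average, from 2 UMIs (log2 fold change -3.82, SE 0.66, adjusted p = 0.00104). The family as a whole was at 8.44 ± 1.81 CPM in L and 84.3 ± 20.1 CPM in G. *Itpr3* went the other way, called higher in L at 1.81 ± 0.559 CPM from 9 UMIs. G and T held 0 UMIs of *Itpr3* and C 1, so its fold has no fixed size. That call was lost without lane 2 (adjusted p = 0.102) or 4 (adjusted p = 0.0556). It was also lost with library size (adjusted p = 0.0594) and with outliers and doublets kept (0.0531). *Scn3a* fell by 4.38 on the log2 scale (adjusted p = 0.0102). *Asic1* was lower (-1.19 ± 0.35, adjusted p = 0.0319), a call lost without lane 1 (adjusted p = 0.187) or 4 (adjusted p = 0.0565) and with DESeq2 (adjusted p = 0.0569). Of the ryanodine receptors, *Ryr2* had its highest mean levels in T (8.05 ± 3.81 CPM, from 8 UMIs) and L (7.75 ± 3.01 CPM), and *Ryr3* in S (4.21 ± 1.49 CPM).

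**Figure D3:**
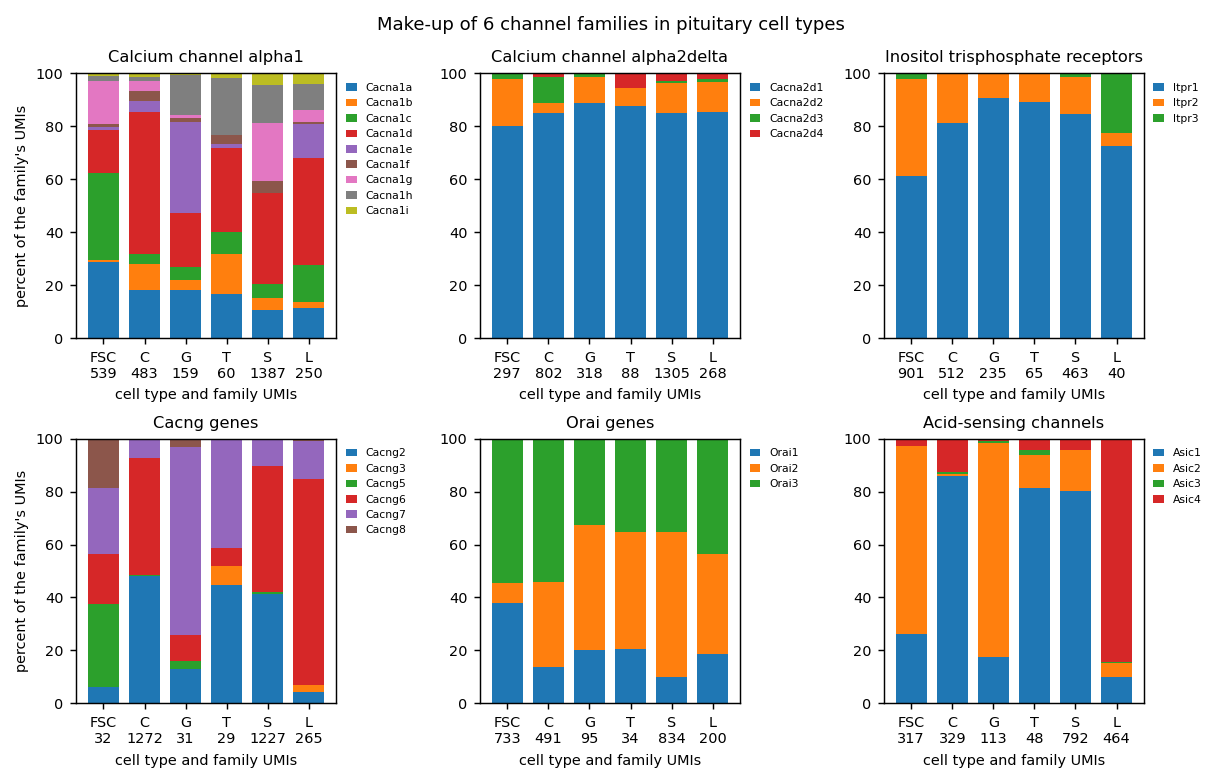
Share of each family's UMIs (vertical axes, percent) that each member held in folliculostellate cells and the 5 hormone-producing types (horizontal axes, with the family's UMIs under each name). *Cacna2d1* held most alpha2delta UMIs in all 6 types and *Itpr1* most inositol trisphosphate receptor UMIs. With the sexes pooled the leading alpha1 gene was *Cacna1c* in FSC, *Cacna1e* in G and *Cacna1d* in the other 4 types, but *Cacna1a* led in male G and *Cacna1g* in female S.

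*Cacna1d* led the alpha1 UMIs of C (53.4%, 48.9 to 57.9%), T (31.7%, 20.3 to 45.0%) and L (40.4%, 34.3 to 46.8%) in both sexes, whereas the leading gene of S and G was not the same in females and males, as given above. *Cacna1a*, the P/Q-type pore, was detected in all pituitary types at 5.62 to 10.2 CPM on average. *Cacna2d1* held 84.9% to 88.7% of the alpha2delta UMIs in the 5 HPC types and 80.1% (75.1 to 84.5%) in FSC. These intervals cover counting error only.

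Among beta subunits, *Cacnb4* was on average at 7.003 CPM in L and at 18.2 CPM in T, and *Cacnb2* was at 13.9 ± 5.18 CPM in G. *Scn2b*, the beta subunit next to *Scn3b* by UMIs in each HPC type, was at 17.7 ± 5.55 CPM in G and 5.10 ± 0.637 CPM in FSC. *Cacng7* was at 8.79 ± 8.39 CPM in T and held 71.0% (52.0 to 85.8%) of the few Cacng UMIs of G. Of the store-operated channels, *Orai2* led in S (54.7%, 51.2 to 58.1%) and *Orai3* in C (54.2%, 49.7 to 58.6%). *Trpc1*, which led the TRPC family in S with 94.6% (87.8 to 98.2%) of its UMIs, was at 4.14 ± 0.547 CPM there and 6.84 ± 1.20 CPM in C.

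The members higher in leukocytes were TRP channel genes, store-operated channel genes and *Itpr2*. Against the mean of the 6 pituitary types 6 members were higher, with 20.9% of all genes called higher, and 20 were lower, with 23% of all genes called lower. *Trpc6*, a diacylglycerol-gated cation channel, was at 95.9 and 86.3 CPM in the female lanes and 104 and 61.5 CPM in the male lanes and was found in 187 of 548 cells (34.1%, exact 95% interval 30.2 to 38.3%). In C, G, T and EC it had 0 UMIs, and in FSC, S and L it had 1 UMI each. *Trpm2*, a channel gated by ADP-ribose and known from phagocytes, was at 48.0 and 49.3 CPM in the female lanes and 42.6 and 61.5 CPM in the male lanes, against at most 6.01 CPM in any lane of a pituitary type, and *Trpv2* at 21.7 and 20.6 CPM in the female lanes and 26.3 and 20.5 CPM in the male lanes. *Orai1*, the pore of the calcium release-activated current first known from lymphocytes, was at 77.3 and 58.9 CPM in the female lanes and 58.9 and 79.3 CPM in the male lanes (log2 fold change 3.31, SE 0.24, adjusted p = 9.5e-09). *Itpr2* (2.55 ± 0.29) and *Orai2* (1.18 ± 0.27) were higher as well, *Orai2* by 0.84 and under 2-fold with library size. Among the genes lower in Le were *Scn3b* (-4.89 ± 0.67), *Cacna2d1* (-5.52 ± 0.53), *Cacnb3* (-5.43 ± 0.48), *Asic1* (-4.27 ± 0.71), *Scn2b* (-3.93 ± 0.71) and *Cacna1d* (-3.34 ± 0.55), all on the log2 scale. *Cacna1c*, *Scn7a*, *Scn8a* and *Scn9a* had 0 UMIs in the 548 Le.

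In endothelial cells 6 members were higher, with 17.9% of all genes called higher, and 17 were lower, with 17.6% of all genes called lower. Sodium alpha subunits had 18 UMIs in all in EC, of which *Scn7a* had 16, every one in lane 3 and from 2 cells. The posterior pituitary markers took 0.00354% of the UMIs of EC in lane 3 and 0.00309% in lane 4, and 0% in lanes 1 and 2, with 2 of the 5 markers at 0. Their part in the *Scn7a* value was not tested. *Orai1* was at 33.6 and 46.9 CPM in the female lanes and 69.2 and 77.0 CPM in the male lanes (log2 fold change 3.02, SE 0.29, adjusted p = 5.06e-07) and *Itpr2* at 31.5 and 52.1 CPM in the female lanes and 29.3 and 36.6 CPM in the male lanes (log2 fold change 3.03, SE 0.32, adjusted p = 1.35e-06). *Trpm4* was at 23.1, 15.6, 7.99 and 25.7 CPM and *Trpm1* at 4.21, 13.0, 5.32 and 7.33 CPM in lanes 1 to 4, and T held 0 UMIs of either. *Itpr3* was at 5.81 ± 3.58 CPM. *Scn3b*, *Scn2b*, *Scn9a*, *Cacng2*, *Cacng7*, *Cacnb4*, *Cacna2d2* and *Trpc1* had 0 UMIs in EC, which allows a share of up to 2.27% of cells. *Orai2* (-1.53 ± 0.54, adjusted p = 0.0295) and *Orai3* (-1.54 ± 0.39) were lower, *Orai3* not with library size (adjusted p = 0.0616). The call of *Orai2* was lost without lane 1 (adjusted p = 0.136), 2 (0.0748) or 4 (0.137). It was also lost with library size (adjusted p = 0.131) and with DESeq2 (0.0736).

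**Figure D4:**
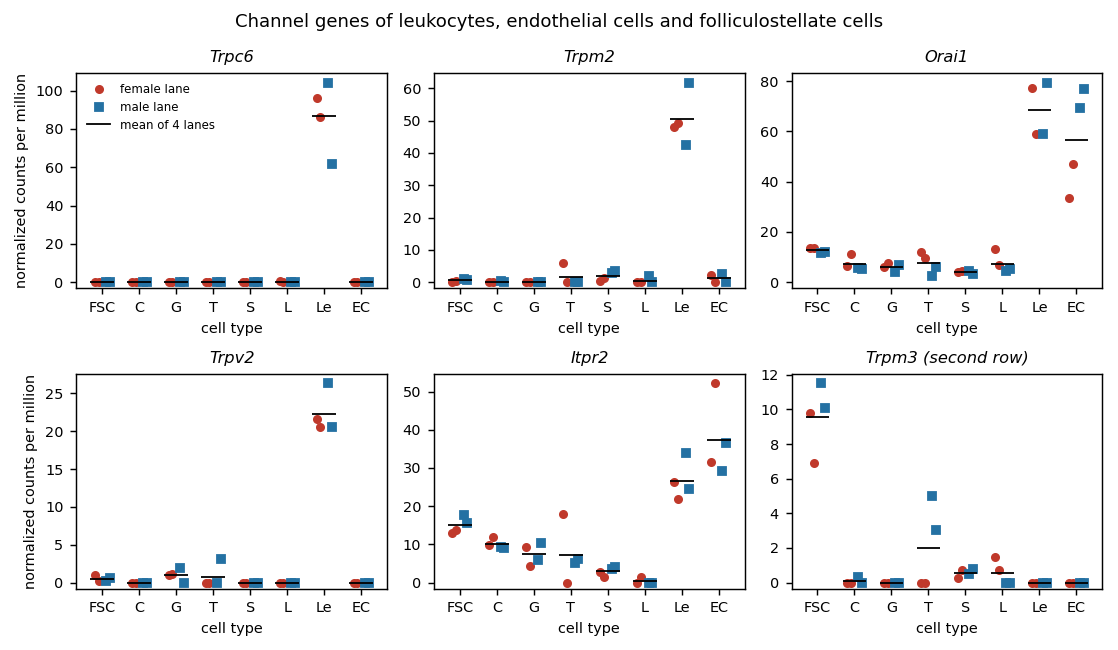
Levels of 6 member genes (vertical axes, CPM on linear scales that differ between panels) in 8 cell types (horizontal axes). Points are single lanes, red circles female and blue squares male, and bars are means of 4 lanes. *Trpc6* and *Trpm2* are high in Le alone among these types, *Trpv2* has its highest levels in Le, *Orai1* is high in Le and EC, and the second *Trpm3* row in FSC.

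Between the female and male pools, 40 members passed the filter in the sums by lane. *Asic2* was called in 3 cell types. *Asic2*, a subunit that joins other acid-sensing channel subunits, was at 43.7 and 54.7 CPM in the female lanes and 0 and 0 CPM in the male lanes in G. Its 91 female UMIs stood against 0 male UMIs, so it was at least 17.72-fold higher in female G, counted against a limit of 3 UMIs over the 2 male lanes. In S it was at 15.2 and 14.0 CPM in the female lanes and 0.327 and 0.151 CPM in the male lanes (log2 fold change -5.63, SE 0.45, adjusted p = 1.8e-14). L held 24 female and 0 male UMIs of it, at least 6.16-fold higher in females. In all 3 types the female and male lanes did not overlap. In FSC *Asic2* was at 10.8 and 10.3 CPM in the female lanes and 10.0 and 10.1 CPM in the male lanes, with log2 fold change -0.07 ± 0.24 (adjusted p = 0.911). C held 2 UMIs of it in all, and T 4 female and 2 male.

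RefSeq lists 2 starts for *Asic2* on chromosome 10 of assembly GRCr8, 802 kb apart and both on the minus strand, and counts at the 3′ end do not tell transcripts from them apart. The 250 bases before each start are shown because *Asic2* differed between the pools in 3 cell types, and so that the starts can be compared. Capitals mark TATAAA, the TATA box letters. The upstream start has the window chr10:67438238-67438487 and the downstream start chr10:66636062-66636311.
Asic2 upstream start: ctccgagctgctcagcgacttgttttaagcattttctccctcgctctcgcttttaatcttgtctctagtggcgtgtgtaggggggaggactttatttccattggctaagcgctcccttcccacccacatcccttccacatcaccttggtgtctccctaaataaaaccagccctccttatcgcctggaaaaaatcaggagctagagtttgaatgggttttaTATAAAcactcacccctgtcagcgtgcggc
Asic2 downstream start: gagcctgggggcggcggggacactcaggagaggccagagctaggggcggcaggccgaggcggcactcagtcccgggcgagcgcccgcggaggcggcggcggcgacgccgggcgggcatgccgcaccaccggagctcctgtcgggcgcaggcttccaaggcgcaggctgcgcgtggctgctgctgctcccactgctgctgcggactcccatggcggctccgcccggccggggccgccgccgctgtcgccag
The upstream window holds TATAAA 30 bases before the start, overlapping its own reverse complement, and the downstream window holds these letters on neither strand. In 12.93% of 33469 promoter windows of this length TATAAA was found on either strand. Of 67 member symbols 48 had an entry, and only *Asic2* and *Cacng2* held the letters, *Cacng2* on the opposite strand. This describes the sequence and says nothing of which start was used in these cells.

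In G, 2 members were higher in males, with 2.72% of all genes called higher, and 2 were lower, with 2.49% of all genes called lower. *Scn3b* was at 79.1 and 58.0 CPM in the female lanes and 253 and 204 CPM in the male lanes (log2 fold change 1.72, SE 0.17, adjusted p = 1.18e-11), and *Cacna2d1* at 57.3 and 72.6 CPM in the female lanes and 140.1 and 158 CPM in the male lanes (log2 fold change 1.21, SE 0.18, adjusted p = 8.91e-07). The female lanes lay below the male lanes in both genes. *Cacna1e* went the other way, at 26.03 and 26.8 CPM in the female lanes and 7.89 and 3.46 CPM in the male lanes (log2 fold change -2.24, SE 0.65, adjusted p = 0.0172). Its call was lost when any lane was left out, with adjusted p from 0.0591 without lane 1 to 0.339 without lane 4. *Asic2* was the other gene lower in males. Hormone transcripts took 15.6% and 18.8% of the UMIs of female G and 9.84% and 8.86% of male G, and their part in these differences was not tested.

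In S, 2 members were higher in males, with 2.19% of all genes called higher, and 2 were lower, with 2.02% of all genes called lower. *Cacna1g* was at 22.1 and 28.0 CPM in the female lanes and 6.71 and 8.32 CPM in the male lanes (log2 fold change -1.73, SE 0.24, adjusted p = 9.97e-08). The lanes of the 2 sexes did not overlap. *Trpm2* was called higher in males (1.81 ± 0.58, adjusted p = 0.023), a call lost without lane 1 (adjusted p = 0.246), 3 (0.0555) or 4 (0.162).

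In L, 2 members were higher in males, with 4.88% of all genes called higher, and 4 were lower, with 6.59% of all genes called lower. With library size in place of TMM, which moved the median of all genes by 0.609, the counts were 9 and 3. The shares of all genes just given hold for TMM, so no excess of members is read from these counts. The hormone transcripts took 32.4% and 31.4% of the UMIs of female L and 18.8% and 18.0% in males, and their part was not tested. *Asic4* was at 31.9 and 23.1 CPM in the female lanes and 138 and 166 CPM in the male lanes (log2 fold change 2.46, SE 0.24, adjusted p = 2.76e-12), so the lanes of the 2 sexes did not overlap. *Scn2b* was lower in males (-1.67 ± 0.43, adjusted p = 0.00225), with adjusted p = 0.0586 without lane 2 and 0.0704 without lane 3, and 0.0594 with library size. *Cacna1g* had 11 female and 0 male UMIs, at least 2.82-fold higher in females, a call lost without lane 2 (adjusted p = 0.0674), 3 (0.105) or 4 (0.0823). *Scn7a* was called higher in males (2.15 ± 0.73, adjusted p = 0.0264), which was lost without lane 2 (adjusted p = 0.226) or 3 (adjusted p = 0.356) and with outliers and doublets kept (adjusted p = 0.0571). Its 27 UMIs in L came from 16 cells, and the posterior pituitary markers took 0% of the UMIs of L in both female lanes and 0.000454% and 0.000104% in the male lanes, with 4 of the 5 at 0. Their part in the *Scn7a* value was not tested.

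**Figure D5:**
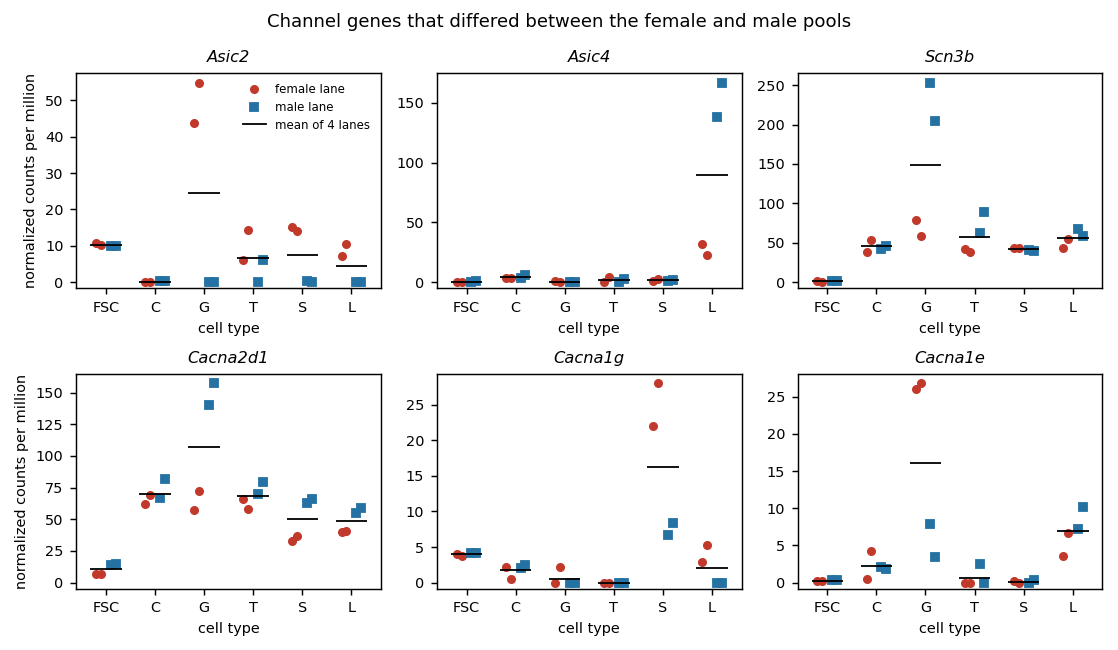
Levels of 6 member genes (vertical axes, CPM on linear scales that differ between panels) in folliculostellate cells and the 5 hormone-producing types (horizontal axes). Points are single lanes, red circles female and blue squares male, and bars are means of 4 lanes. Male lanes lie at or near 0 for *Asic2* in G, S and L and level with the female lanes in FSC, while for *Asic4* the male lanes of L are the highest points.

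In FSC, 6 members were higher in males, with 1.45% of all genes called higher, and 0 were lower, with 0.726% of all genes called lower. Of 40 tested, 10 had an unadjusted p under 0.05 in either direction, and DESeq2 called 6. The shares of all genes by these 2 measures are not given. *Cacna2d1* was at 6.81 and 6.54 CPM in the female lanes and 14.1 and 14.4 CPM in the male lanes (log2 fold change 1.09, SE 0.20, adjusted p = 0.000105). *Asic1* was at 1.28 and 1.98 CPM in the female lanes and 6.24 and 4.79 CPM in the male lanes (log2 fold change 1.71, SE 0.39, adjusted p = 0.00153), with adjusted p = 0.0542 without lane 3. *Scn7a* had 0 female and 21 male UMIs, at least 5.62-fold higher in males, and *Scn9a* 0 and 11, at least 2.94-fold. The 21 UMIs of *Scn7a* came from 9 cells. Posterior pituitary markers took 0% and 4.48e-05% of the UMIs of female FSC and 5.77e-05% and 0.000232% of male FSC, with 3 of the 5 at 0, and *Scn7a* itself was found in 66.1% of the 59 posterior pituitary cells, which were left out. Their part in the *Scn7a* value was not tested. The call of *Scn9a* was lost when any lane was left out (adjusted p = 0.0519 to 0.15), as was that of *Cacna1d* (adjusted p = 0.0695 to 0.169). *Scn9a* also lost it with the cells typed by markers alone (adjusted p = 0.121) and with outliers and doublets kept (0.0606). All 6 had higher mean levels in at least 1 HPC type than in FSC. The 4 endocrine markers *Resp18*, *Uchl1*, *Chgb* and *Scg2* together took 0.0145% and 0.0134% of the UMIs of female FSC and 0.0415% and 0.0212% of male FSC, with 0 of the 4 at 0. Their part in these differences was not tested.

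In C, 0 members were called higher in males, with 0.103% of all genes called higher, and 0 lower, with 0.158% of all genes called lower, by edgeR's quasi-likelihood test. At an unadjusted p under 0.05 there were 5, and DESeq2 called 0. *Itpr1* came nearest, at 34.1 and 31.4 CPM in the female lanes and 50.1 and 50.1 CPM in the male lanes (log2 fold change 0.62, SE 0.16, adjusted p = 0.0558). In T, 0 were called higher, with 0.994% of all genes called higher, and 0 lower, with 0.402% of all genes called lower. There 3 had an unadjusted p under 0.05, and DESeq2 called 0. For C and T the shares of all genes by these measures are not given. *Scn3b* in T was at 42.1 and 38.5 CPM in the female lanes and 62.5 and 88.5 CPM in the male lanes, so the female lanes lay below the male ones, with a log2 fold change of 0.89 ± 0.41 and adjusted p = 0.397. That change is under 2-fold, and T numbered 38 female and 50 male cells.

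Genes whose products work beside these channels were taken from a list of 51, of which 38 were tested between cell types. In FSC 10 of them were lower than in HPC, with 11.8% of all genes called lower, and 3 higher, with 20.7% of all genes called higher. The sodium leak channel, which sets the resting potential, had 4 genes that fell: its pore *Nalcn* (-2.07), *Unc79* (-3.99), *Unc80*, listed as *LOC689991* (-3.19), and *Fam155a* (-6.13), each given as log2 fold change. The plasma membrane calcium pump *Atp2b2* (-4.57), *Fgf14* (-2.98), *Rem2* (-2.63), *Mcoln3* (-2.13), *Slc8a1* (-1.61) and *Fgf12* (-1.30) were lower too. *Fgf13*, which binds sodium channels, was higher (3.18), as were *Atp2b4* and *Tpcn1* (1.51).

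Gonadotrophs had 12 partner genes higher than the other HPC types, with 7.01% of all genes called higher, and 0 lower, with 3.22% called lower. These included calcium clearance genes: the pumps *Atp2a2* (1.44), *Atp2b2* (1.29) and *Atp2b3* (2.40), and the sodium-calcium exchangers *Slc8a1* (2.14) and *Slc8a2* (3.39). The others included *Rrad* (7.08) and *Gem* (1.57), small GTPases known to inhibit calcium channels, *Fkbp1b* (3.29), which binds ryanodine receptors, *Mcoln3* (1.82), *Mcoln1* (1.61) and *Asph* (1.11). Corticotrophs had 4 higher and 5 lower, with 7.34% and 6.16% of all genes called. *Trdn*, known from the calcium release complex of muscle, stood highest among them, with 0 UMIs in at least 1 type compared, and *Scnn1b* (3.36), *Fgf14* (2.93) and *Fam155b* followed, while *Atp2b4* was lowest (-4.41). Somatotrophs had 6 higher and 5 lower (6.15% and 4.06% of all genes), with *Slc8a1* at -4.16 and *Fgf13* at -3.48, and *Atp2a3* at 2.61. Thyrotrophs had 4 higher (3.17% of all genes), *Jph4* (4.21) and *Slc8a1* (3.33) the most, and 1 lower (0.734% of all genes), *Mcu* (-1.66). In lactotrophs 0 were higher and 4 lower (6.93% and 3.53% of all genes), among them *Slc8a2* (-4.41).

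By sex, 33 partner genes were tested in each type. In G 2 were higher in males and 3 lower (2.72% and 2.49% of all genes), in L 1 and 3 (4.88% and 6.59%), in S 1 and 0 (2.19% and 2.02%), in FSC 1 and 0 (1.45% and 0.726%) and in T 2 and 0 (0.994% and 0.402%). In G, *Rrad* (-4.26), *Fgf13* (-3.20) and *Rem2* (-2.01) were lower in males and *Gem* (1.72) and *Fgf12* (1.76) higher. In L, *Fgf13* (-4.71), *Fgf12* (-1.72) and *Slc8a1* (-1.48) were lower in males and *Atp2b4* (1.06) was higher. *Gem* was higher in male S (3.21), *Slc8a1* in male FSC (1.35), and *Atp2a2* (1.26) and *Rem2* (1.70) in male T. None was called in C by edgeR's quasi-likelihood test.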

How the data were processed

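The deposited file held UMI counts per gene and cell, which the authors had made with Cell Ranger 2.1 and an NCBI rat reference with extended 3′ ends, lanes being combined after their mapped reads were equalized. Lanes were tied to sexes by the cell numbers that the study gives per sex. How a replicate number maps to a lane was not given in the sources used here. Cells were filtered for mitochondrial share, depth outliers and doublets and typed from marker genes, and 222 cells without a marker call took the type of their nearest neighbours. Melanotrophs, pericytes, posterior pituitary cells and unclassified cells were left out of the comparisons.

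Counts were summed per type and sex for the comparison of types (with sex as a term) and per type and lane for that of sexes. They were filtered with filterByExpr (minimum count 10), scaled by TMM, tested with edgeR 4.0.16 (quasi-likelihood, R 4.3.3) and adjusted by Benjamini-Hochberg over all genes tested. A contrast takes the mean of the logs of the types it compares with. Where 1 of those types held 0 UMIs, no gene could be called lower and its fold depends on the prior count, so UMIs or levels are given, and limits use 3 counts over the group. Shares carry exact Clopper-Pearson 95% intervals, which cover counting error only. The procedure was tested on simulated data.

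Named members were those called in a comparison (up to 10 in each direction, by size of change), the 3 with most UMIs of each family, and *Cacna2d1*, *Scn3b*, *Cacng2*, *Asic4* and *Asic2*. Some genes that entered the counts are not reported here by name. Members, partner genes and tests were chosen with earlier results of these data known. Alternatives were DESeq2 1.42.0, library size scaling, no filter, marker rules alone, outliers and doublets kept, erythrocytes included, lanes as libraries, 1 fit per type, each lane left out, and thinning to 2000 UMIs. Promoter sequences are from RefSeq (GRCr8).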

Additional observations from a re-analysis of the deposited data

Results flagged for a closer look

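Differences between cell types in the sex effect were tested as interaction terms, each type against the mean of the other HPC types, in the same edgeR quasi-likelihood fit, and 6 passed, of which 5 are given here. Of 40 members, 1 (2.5%) was called higher in each of C, G and S, 1 lower in T, and 1 each way in L. Of all genes, 0.466% were called higher and 0.56% lower in C, 1.06% and 1.17% in G, and 1.22% and 0.442% in T. These shares were 0.947% and 0.765% in S and 3.72% and 5.23% in L. *Scn3b* in G had a male-to-female log2 fold change larger by 1.451 than the other types (SE 0.224, adjusted p = 5.34e-06). It was the one of the 5 that was called under every alternative run.

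The others were each lost under at least 1 alternative. For *Scn2b* in L the difference was -1.612 (SE 0.495, adjusted p = 0.0173), and for *Itpr1* in T it was -1.415 (SE 0.417, adjusted p = 0.0451). *Asic2* in C gave 8.859 (SE 2.39, adjusted p = 0.0246) and *Asic4* in L 3.532 (SE 1.19, adjusted p = 0.0328). Both of these fits included groups with 0 UMIs, so their sizes depend on the prior count, and C held 2 UMIs of *Asic2* in all. Without lane 1, 2, 3 or 4 the adjusted p of *Asic2* in C was 0.0781, 0.129, 0.203 and 0.174. *Scn2b* in L had 0.127, 0.155 and 0.14 without lane 2, 3 or 4, and 0.146 with library size. *Itpr1* in T had 0.464, 0.131 and 0.577 without lane 1, 2 or 3. It had 0.0746 with no filter and 0.0623 with outliers and doublets kept. *Asic4* in L had 0.0862 without lane 3, and could not be called without lane 1 or 2.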

How the results depend on the processing

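No paired analysis was possible because the lanes carry no replicate number of a sex and the sexes came from separate pools. That holds between the sexes. The comparison of types had sex as a term, so it set types of the same pool against each other. Of 127 calls between types, 66 held under all 12 alternatives, 19 held under the 9 to 11 in which the gene was tested, and 42 were lost under some, 22 of them only without a lane. By sex, 9 of 20 held under all 11 and another 2 under the 10 in which the gene was tested. No value reversed. With library size, 17 members were called in S and 12 by sex in L. Shares of all genes called are given for the main fits alone, so counts under alternatives have no such background. With lanes as libraries 32 members were tested and 20 called in FSC, where 11 of the 31 genes otherwise called had no test. With 1 fit per type 3 were called by sex in L, where 4 of the 6 had none. Differences of the sex effect moved in C to 0 (DESeq2) and 2 (no filter), in T to 0 (no filter, and outliers kept), in S to 0 and in L to 1 (marker rules alone). The cause of the other moves was not tested. Leaving out 1 lane gave 24 to 32 members called in FSC, 9 to 12 in C, 9 to 10 in G, 2 to 5 in T, 9 to 12 in S, 8 to 10 in L, 22 to 25 in Le and 19 to 23 in EC. By sex it gave 4 to 4 in FSC, 0 in C and T, 3 to 3 in G, 3 to 4 in S and 3 to 7 in L. For the difference of the sex effect it gave 0 to 1 in C, 1 to 1 in G, 0 to 1 in T, 0 to 0 in S and 0 to 1 in L. Leaving out cells whose barcode occurs in 2 lanes, chosen after seeing the data, kept every count of calls within 1.5 times. Each sex was 1 pool, so animal variation is not measured, and T (88 cells) and EC were the smallest types compared.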

Other observations

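Melanotrophs of the intermediate lobe, which like corticotrophs make *Pomc*, were found as 60 cells, 56 of them male, and entered no comparison. *Cacna2d2*, an alpha2delta subunit, was found in 32 of 60 cells (53.3%), against 4.03% (2.77 to 5.64%) of C. *Scn2a1* was found in 26 of 60 cells (43.3%, exact 95% interval 30.6 to 56.8%), against 2.64% (1.64 to 4.01%), and *Scn7a* in 33 of 60 cells (55.0%, exact 95% interval 41.6 to 67.9%), against 1.64% (0.875 to 2.78%). *Cacna1d* was found in 27 of 60 cells (45.0%, exact 95% interval 32.1 to 58.4%), and in 27.2% (24.1 to 30.4%) of C. *Cacng6*, one of the 2 leading Cacng genes of C, was found in 4 of 60 cells (6.67%, exact 95% interval 1.85 to 16.2%), against 45.6% (42.1 to 49.1%), and *Cacng2* in 1 of 60 cells (1.67%, exact 95% interval 0.0422 to 8.94%), against 40.2% (36.7 to 43.7%). These differences were not tested between pools, and the intervals cover counting error only.

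Another 59 cells carried posterior pituitary markers. *Scn7a* was found in 39 of 59 cells (66.1%, exact 95% interval 52.6 to 77.9%), *Cacna2d2* in 23 of 59 cells (39.0%, exact 95% interval 26.5 to 52.6%) and the second *Trpm3* row in 20 of 59 cells (33.9%, exact 95% interval 22.1 to 47.4%).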
